A study of Mus musculus with 6 samples.

Results

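The genes described here encode the opioid peptides and their receptors. Pdyn, Penk and Pnoc encode the precursor proteins, and Oprm1, Oprd1, Oprk1 and Oprl1 encode the mu, delta, kappa and nociceptin receptors. The 7 genes, 3 precursors and 4 receptors, were taken by name from a count table of 55471 mouse genes. All 7 were among the 17981 genes that passed the filter on low counts, and the lowest count of any of them was 16, for Oprk1. The family was picked with the difference between genotypes in these libraries already known, because Pdyn and Penk were lower in the mutant. Their levels and differences are therefore given as a description, with no test. Both genes also stand on the study's list of genes reduced across its screens, which was chosen partly on these libraries and is no independent evidence.

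RNA-seq was performed on total hippocampal RNA from C57BL/6 mice in 6 libraries, 3 of Control and 3 of CBP-ifKO mice. The question was which transcripts depend on CBP, the lysine acetyltransferase encoded by Crebbp, in adult excitatory neurons. CBP-ifKO mice carried floxed Crebbp together with Camk2a-creERT2, a Cre recombinase that tamoxifen activates and that the Camk2a promoter restricts to excitatory neurons of the forebrain. The driver does not target interneurons, glia or vessels, and the recombined allele still yields a truncated protein according to the study's methods. Both groups were 3 to 6 months old and received 5 intragastric doses of tamoxifen (20 mg/mL in corn oil), given every other day. The design text and the study's methods describe Control mice as tamoxifen-treated littermates that lack the Cre driver. The study also reports Arsi and Esr1 as raised in CBP-ifKO over Control, and attributes this to the driver transgene. The sample descriptions name the driver for Control too, which conflicts with these statements. Control is therefore taken as lacking the driver, and Arsi and Esr1 were not examined here. Each library was made from a pool of hippocampi of 3 females, so that the spread between libraries is a spread between pools.

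Opioid precursors are cut in dense core vesicles, at pairs of basic residues, into short peptides that are released during strong firing. Dynorphins from Pdyn prefer the kappa receptor, enkephalins from Penk act on delta and mu receptors, and nociceptin from Pnoc acts on its own receptor, Oprl1. All of these receptors couple to Gi/o proteins, which open GIRK potassium channels and reduce transmitter release. In the hippocampus, dynorphin is best known from the mossy fibers of dentate granule cells. Enkephalin is found in granule cells, in some interneurons and in fibers from the entorhinal cortex, and nociceptin mainly in interneurons.

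The 3 precursors carry different numbers of the opioid core, the short peptide that binds the receptor. In the GENCODE transcripts of build GRCm38, the coding sequence of Pdyn (247 codons) held 3 cores that begin with tyrosine and end with leucine. That of Penk (267 codons) held 7 cores, of which 6 end with methionine and 1 with leucine. That of Pnoc (211 codons) held 1 core, which begins with phenylalanine. The lines below give the 3 cores of Pdyn, 1 methionine core and the leucine core of Penk and the core of Pnoc, to show what each transcript contributes per molecule. Each is written 5′ to 3′ on the minus strand, with the 5 codons of the core in capitals and the flanking codon pairs in lower case.
Pdyn core 1, chr2:129688232-129688258: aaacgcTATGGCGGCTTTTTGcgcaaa
Pdyn core 2, chr2:129688124-129688150: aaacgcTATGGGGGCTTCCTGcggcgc
Pdyn core 3, chr2:129688067-129688093: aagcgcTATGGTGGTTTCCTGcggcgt
Penk core 1, chr4:4134328-4134354: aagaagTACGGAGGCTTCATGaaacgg
Penk core 6, chr4:4133935-4133961: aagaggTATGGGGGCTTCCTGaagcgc
Pnoc core 1, chr14:65404872-65404898: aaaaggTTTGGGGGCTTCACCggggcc
The cores of Pdyn belong, in this order, to alpha-neoendorphin, dynorphin A and dynorphin B, and each is flanked by codon pairs for basic residues on both sides. In Penk, all 7 cores follow such a pair and 5 also precede one. The other 2 Penk cores, among them the last, run on into longer enkephalins.

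Levels are given as CPM, that is, counts divided by the library total (corrected by TMM factors) and put on one common scale. Where a group has its 3 libraries listed, they stand in the order of replicates 1 to 3. Differences are log2 fold changes of CBP-ifKO over Control with their standard error (SE) from an edgeR fit over all genes tested. The 6 libraries held between 10199008 and 14950257 counts. The common coefficient of variation between libraries of a group, estimated by edgeR without counting noise, was 6.81%. Crebbp, the targeted gene, was at 208.6, 156.4 and 208.5 CPM in the Control libraries, compared with 108.6, 87.1 and 99.4 CPM in the CBP-ifKO libraries. It fell to 51.5% of the Control level (log2 fold change -0.96, edgeR adjusted p 3.63e-05, SE 0.10), with every CBP-ifKO library below the Control libraries, as the genotype labels have it. Bulk RNA cannot tell fewer cells of a type from less RNA per cell, and this holds for every value below.

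Pdyn was the member with the largest difference. Its gene lies on chromosome 2 (GRCm38, 129686565 to 129699844, minus strand, protein coding). It was at 7.70, 9.36 and 8.13 CPM in the Control libraries, compared with 3.29, 2.96 and 3.21 CPM in the CBP-ifKO libraries. The CBP-ifKO libraries lay close together, and each was below all Control libraries by a wide margin. The Control mean was 8.40 ± 0.863 CPM and the CBP-ifKO mean 3.15 ± 0.175 CPM (SD, n = 3), so that CBP-ifKO kept 37.6% of the Control level and Control was 2.68 times higher. The log2 fold change was -1.42 (SE 0.17), and of the 17981 genes tested only 20 had a lower one. The counts behind these values ran from 34 to 109 reads per library.

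Penk showed a difference of similar size, with more spread. The gene lies on chromosome 4 (GRCm38, 4133531 to 4138819, minus strand, protein coding). It was at 14.3, 16.1 and 12.7 CPM in the Control libraries, compared with 5.14, 7.30 and 5.35 CPM in the CBP-ifKO libraries. CBP-ifKO replicate 2, the deepest library, stood above the other CBP-ifKO libraries but far below the lowest Control. The Control mean was 14.3 ± 1.68 CPM and the CBP-ifKO mean 5.93 ± 1.19 CPM (SD, n = 3), or 41.3% of Control. Penk had a log2 fold change of -1.26 (SE 0.15), with 40 genes lower, or -1.45 without CBP-ifKO replicate 2. Of the exon bases of Penk, 14.3% are shared with A830012C17Rik on the opposite strand. Whether the counting used the strand was not stated, so reads from that stretch cannot be assigned to either gene.

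Pnoc differed less from Control than the other precursors. It lies on chromosome 14 (GRCm38, 65400673 to 65425472, minus strand, protein coding). Its Control libraries gave 4.60, 4.64 and 3.87 CPM, and its CBP-ifKO libraries 3.49, 3.22 and 2.80 CPM. The groups did not overlap, but the lowest Control and the highest CBP-ifKO library were closer to each other than the lowest and highest library within either group. Its log2 fold change of -0.47 (SE 0.19) left CBP-ifKO at 72.5% of Control, and 999 genes had a lower value.

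**Figure D1:**
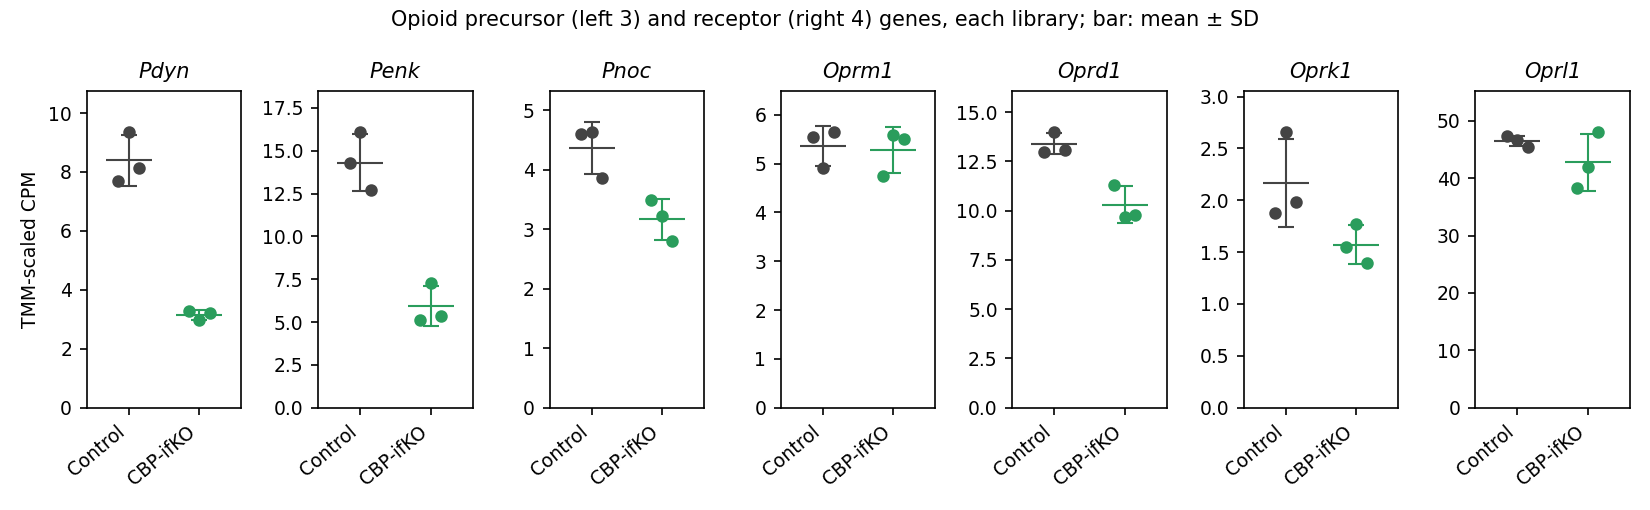
Level of each opioid gene in every library (vertical axes, TMM-scaled CPM, each starting at 0), with Control in grey and CBP-ifKO in green; the long bars are means and the short bars SDs over 3 libraries. The groups are far apart for Pdyn and Penk, do not overlap for Pnoc, Oprd1 and Oprk1, and overlap for Oprm1 and Oprl1.

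Of the 4 receptors, Oprd1 and Oprk1 were lower in CBP-ifKO without overlap, while Oprm1 and Oprl1 overlapped. Oprd1, the delta receptor for enkephalins, lies on chromosome 4 (GRCm38, 132110726 to 132144486, minus strand). It was at 13.0, 14.0 and 13.1 CPM in the Control libraries, compared with 11.3, 9.66 and 9.79 CPM in the CBP-ifKO libraries. The groups did not overlap, and the CBP-ifKO mean stood at 76.7% of Control. Oprd1 had a log2 fold change of -0.39 (SE 0.12), which was -0.29 after correction of each library for GC content and gene length.

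Oprk1, the kappa receptor for dynorphins, was the least abundant of the 7 per length (chromosome 1, GRCm38, 5588466 to 5606131, plus strand). It was at 1.88, 2.66 and 1.98 CPM in the Control libraries, compared with 1.55, 1.77 and 1.40 CPM in the CBP-ifKO libraries. The groups did not overlap, but Control replicate 2 stood apart and the margin between the groups was narrow. The log2 fold change of -0.46 had an SE of 0.27, and it was -0.27 without Control replicate 2. It rests on 16 to 31 reads per library, and the difference was under 2 SE.

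Oprm1, the mu receptor, lies on chromosome 10 (GRCm38, 6758506 to 7038198, plus strand). It was at 5.54, 4.90 and 5.65 CPM in the Control libraries, compared with 4.75, 5.59 and 5.51 CPM in the CBP-ifKO libraries. The groups overlapped throughout, and the mean in CBP-ifKO was 98.5% of Control. Its log2 fold change was -0.01 (SE 0.16), and the sign changed with the library left out and with the scaling, from -0.06 to 0.05. Oprl1, the nociceptin receptor, lies on chromosome 2 (GRCm38, 181715016 to 181720985, plus strand). Its Control libraries gave 47.4, 46.6 and 45.5 CPM, and its CBP-ifKO libraries 38.3, 41.9 and 48.1 CPM. The Control libraries lay close together while CBP-ifKO replicate 3 was above all of them, and the log2 fold change was -0.12 (SE 0.084). Leaving out CBP-ifKO replicate 1 gave -0.05, and leaving out replicate 3 of that group gave -0.20.

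**Figure D2:**
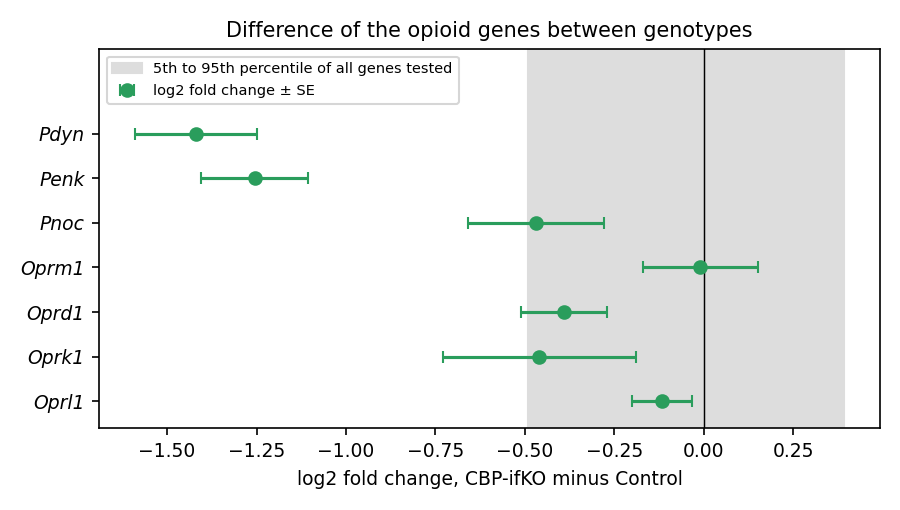
Log2 fold change of CBP-ifKO over Control for each opioid gene (horizontal axis; points with SE), over a grey band from the 5th to the 95th percentile of all 17981 genes tested. Pdyn and Penk lie beyond the band, which starts at -0.49, and the other 5 genes have their points inside it.

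In all, 2 of the 7 genes, Pdyn and Penk, were past an edgeR adjusted p of 0.05, against 6.39% of all genes tested in either direction and 4.99% lower. Of the 1149 genes called, 897 were lower, which became 667 of 1181 with library totals as the scaling and 728 of 1131 with correction for GC content and length. The CBP-ifKO libraries were all below the Control libraries for 5 of the 7, against 13.9% of all genes tested (25.6% without overlap in either direction). Because the family was chosen with this contrast known, nothing is read from these counts. The log2 fold change was below 0 for 7 of 7 genes, with a median of -0.46, whereas the median over all genes tested was -0.003. Its value for Oprm1, the nearest to 0, does not keep that sign in every setting. By role, the 3 precursors had a median of -1.26 and the 4 receptors of -0.25. Control replicate 2 was the highest Control library for Pdyn, Penk, Pnoc, Oprd1 and Oprk1. Without it the log2 fold changes were -1.32 for Pdyn, -1.15 for Penk, -0.41 for Pnoc, -0.35 for Oprd1 and -0.27 for Oprk1.

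Levels of different genes can be compared only per length, so CPM were divided by the deposited exon length in kilobases. On this scale Oprl1 was the most abundant of the 7 in Control, at 12.4 ± 0.252 CPM per kb (SD, n = 3). Penk followed at 8.78 ± 1.03, Oprd1 at 3.33 ± 0.134, Pdyn at 2.91 ± 0.299 and Pnoc at 2.03 ± 0.201 CPM per kb. Oprm1 and Oprk1 closed the order at 0.667 ± 0.0508 and 0.238 ± 0.0465 CPM per kb. Neighbours in this order did not overlap over the Control libraries, although Oprd1 (3.25 to 3.48) and Pdyn (2.67 to 3.24) almost met.

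In CBP-ifKO the order was the same but for 1 exchange, since Pdyn at 1.09 ± 0.0607 CPM per kb came below Pnoc at 1.47 ± 0.161. The ranges of these genes over the CBP-ifKO libraries (1.02 to 1.14 and 1.30 to 1.62) did not overlap either. Oprl1 stood at 11.4 ± 1.33, Penk at 3.63 ± 0.728 and Oprd1 at 2.55 ± 0.232 CPM per kb, with Oprm1 at 0.657 ± 0.0577 and Oprk1 at 0.172 ± 0.0207. The order rests on the length used. With the longest transcript in place of all exons, Pdyn (3.52 CPM per kb in Control) came above Oprd1, and Oprm1 (2.22) above Pnoc.

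**Figure D3:**
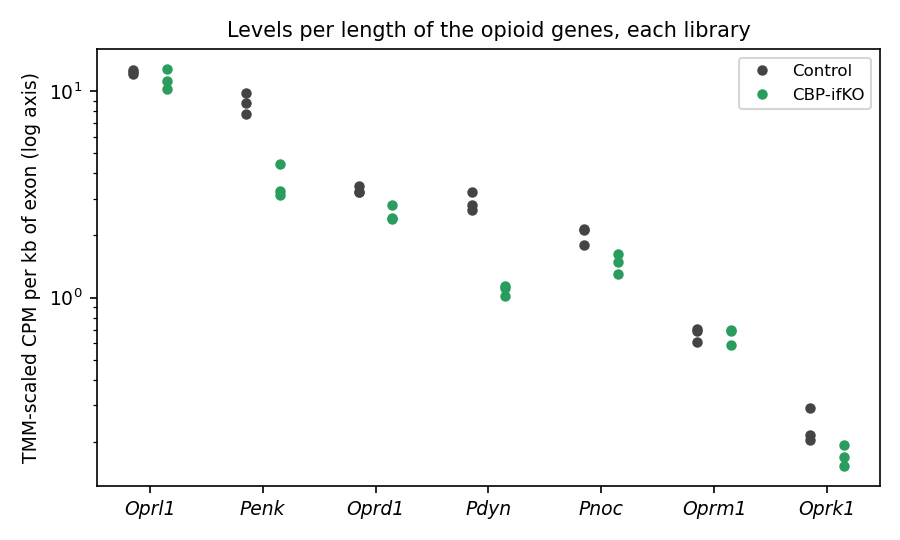
Level per length of the 7 opioid genes (vertical axis, TMM-scaled CPM per kb of exon, log axis), 1 point per library, ordered by the Control mean, with Control in grey and CBP-ifKO in green. Pdyn drops from above Pnoc in Control to below it in CBP-ifKO, and the receptors keep their order.

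The balance between the precursors can be read within each library. The ratio of Penk to Pdyn per length was 3.28, 3.03 and 2.76 in the Control libraries, compared with 2.75, 4.36 and 2.94 in the CBP-ifKO libraries. These ratios overlapped between groups, so the proportion of enkephalin to dynorphin precursor transcripts showed no difference beyond the spread between libraries. The ratio of Pdyn to Pnoc was 1.25, 1.51 and 1.57 in Control and 0.706, 0.686 and 0.857 in CBP-ifKO, without overlap. That of Penk to Pnoc was 4.09, 4.57 and 4.33 in Control and 1.94, 2.99 and 2.52 in CBP-ifKO, again without overlap. Pdyn and Penk were thus lower relative to Pnoc, which itself stood at 72.5% of Control. These 2 ratios restate the log2 fold changes given above and add no separate evidence.

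Markers of the cells and regions that a hippocampal dissection can hold moved beside these genes to different degrees. The dentate granule list, the cells best known for dynorphin, had a summed level of 653.3 to 698.8 CPM in Control and 665.8 to 723.1 in CBP-ifKO, which overlapped. That sum hides moves in opposite directions. Of its 7 genes, 2 fell at an edgeR adjusted p under 0.05 (C1ql2 to 21.5% and Tdo2 to 53.8% of Control). Lct rose past the same threshold, to 164.0%. With an unadjusted edgeR p under 0.05, 4 were lower and 3 higher. The sum of the 7 CA pyramidal markers was 475.7 to 493.3 CPM in Control and 370.5 to 384.3 in CBP-ifKO, and 3 of them fell. The 9 interneuron markers summed to 716.8 to 736.7 and 657.2 to 697.3 CPM, and 2 of them fell (Slc32a1 and Sst). Markers of oligodendrocyte precursors (128.3 to 140.4 and 98.7 to 101.0 CPM, 3 of 3 lower) and of meningeal fibroblasts (73.5 to 79.3 and 42.8 to 53.4 CPM, 1 of 5 tested lower, Dcn) did not overlap either. Of these, DESeq2 called 2 CA pyramidal markers, 1 interneuron marker and 2 markers of oligodendrocyte precursors lower, and limma-voom differed from edgeR only in the last list, with 2. Their part in the values of Pdyn and Penk was not tested.

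The striatum is rich in Penk and Pdyn. Its 10 markers summed to 159.0 to 162.9 CPM in Control and 135.6 to 149.5 CPM in CBP-ifKO. Of the 7 that could be tested none fell and 1 (Rgs9) rose, and Adora2a, Gpr6 and Six3 were at or below 1.07 CPM in every library. The part of the lower sum in the values of Penk and Pdyn was not tested. The 6 hypothalamic markers, which include Pomc, summed to at most 1.89 CPM, and Oxt was at 0 in all libraries. Thalamic and habenular markers summed to 50.2 to 58.0 and 44.2 to 51.2 CPM, and choroid plexus markers to 38.2 to 52.2 and 29.8 to 52.3 CPM. No marker of these last lists, nor of astrocytes, oligodendrocytes, microglia or endothelium, was called by edgeR, DESeq2 or limma-voom, and the sums of each list overlapped between groups. At an unadjusted p under 0.05 edgeR had 1 marker each for astrocytes, oligodendrocytes, microglia, endothelium and choroid plexus. For the striatum it had 3 lower and 1 higher.

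Genes that make, package, cut or transduce opioid peptides were examined as 8 lists of 53 genes. Of these 51 could be tested, and 12 (23.5% of those tested) passed an edgeR adjusted p of 0.05, of which 9 fell and 3 rose. Over all genes tested the share was 6.39%, but the lists were drawn up with results of these libraries known and were not compared with other lists. Their median log2 fold change was -0.08. DESeq2 called 10 of them, against 6.17% of the genes it gave an adjusted p. The count of 12 was 6 when Control 3 or CBP-ifKO 2 was left out, and 7 when CBP-ifKO 3 was left out. Pomc, the beta-endorphin precursor, was at or below 0.601 CPM in every library and could not be tested, and none of the 3 other genes of its list (Ogfr, Ogfrl1 and Ackr3) passed in edgeR, DESeq2 or limma-voom, with 0 at an unadjusted p under 0.05.

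**Figure D4:**
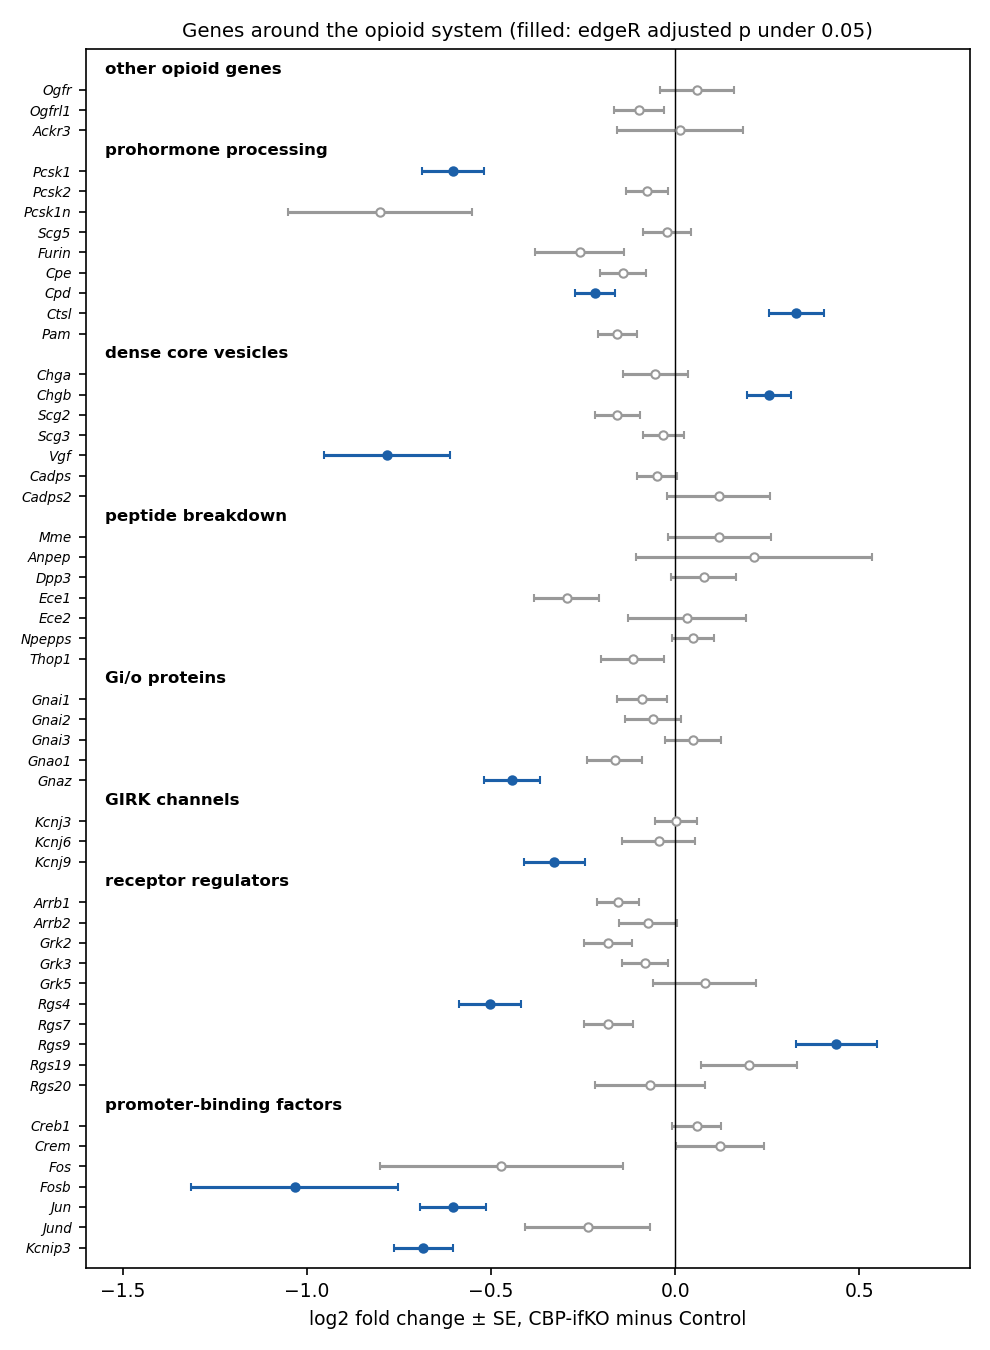
Log2 fold change of CBP-ifKO over Control with SE (horizontal axis) for the 51 tested genes around the opioid system, grouped by role; filled points passed an edgeR adjusted p of 0.05. The 9 filled points left of 0 include Fosb, Vgf, Kcnip3, Pcsk1 and Jun, and the 3 right of 0 are Ctsl, Chgb and Rgs9.

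Of the 9 genes of prohormone processing, 2 fell and 1 rose. By an unadjusted edgeR p under 0.05, 6 were lower and 1 higher. Pcsk1 encodes the convertase that makes the first cuts in the precursors. It was at 41.4, 43.1 and 47.7 CPM in the Control libraries, compared with 29.9, 30.0 and 27.0 CPM in the CBP-ifKO libraries. All CBP-ifKO libraries were well below all Control libraries, and the log2 fold change of -0.60 (edgeR adjusted p 4.2e-04, SE 0.084) stayed past the threshold in each of the 16 alternative settings. Cpd, a carboxypeptidase that trims basic residues, fell slightly from 208.7 ± 5.67 to 179.5 ± 2.23 CPM (log2 fold change -0.22, edgeR adjusted p 0.0263). Its call was lost with library totals as the scaling (0.082) and when Control 1 (0.0857) or 3 (0.113), or CBP-ifKO 1, 2 or 3 (0.0704, 0.0973 and 0.116), was left out. Ctsl, a lysosomal cathepsin that also cuts proenkephalin, rose from 55.8 ± 2.70 to 70.0 ± 5.65 CPM (log2 fold change 0.33, edgeR adjusted p 0.0139). That call did not hold when Control 3 (0.0798) or CBP-ifKO 2 (0.0804) was left out, and 26.8% of its exon bases are shared with Gm47123 on the opposite strand. Pcsk1n, an inhibitor of Pcsk1, had a log2 fold change of -0.80 (SE 0.25) and was not called (edgeR adjusted p 0.065), and Control replicate 2 stood apart at 21.3 CPM.

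Of the 7 dense core vesicle genes, 1 fell and 1 rose, and by an unadjusted edgeR p under 0.05, 2 were lower and 1 higher. Vgf, which encodes a granin-like precursor induced by activity, was at 29.6, 50.1 and 32.3 CPM in the Control libraries, compared with 26.6, 18.0 and 21.5 CPM in the CBP-ifKO libraries. Control replicate 2 stood far above the rest, and the remaining libraries differed by a narrow margin. The log2 fold change was -0.78 (edgeR adjusted p 0.00904, SE 0.17). It was -0.50 when Control 2 was left out (0.0194) and -0.47 with correction for GC content and length (0.0275). DESeq2 did not call it (adjusted p 0.115), nor did edgeR when CBP-ifKO 2 (0.0889) or 3 (0.0538) was left out. Chgb, the granin chromogranin B, rose from 512.4 ± 34.2 to 611.2 ± 24.1 CPM (log2 fold change 0.25, edgeR adjusted p 0.018). It was no longer called when Control 1 (0.0617) or 3 (0.126), or CBP-ifKO 1 (0.0716) or 3 (0.0799), was left out. None of the 7 peptidases that break down opioid peptides passed the threshold in edgeR, DESeq2 or limma-voom, and 1 of them, Ece1, had an unadjusted edgeR p under 0.05 (0.0042).

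On the side of the receptors, 3 genes fell and 1 rose. By an unadjusted edgeR p under 0.05, 2 Gi/o subunits and 1 GIRK channel gene were lower. Among the receptor regulators 4 were lower and 1 higher by that measure. Gnaz encodes the Gi/o-family alpha subunit Gz. It was at 77.3, 82.6 and 75.8 CPM in the Control libraries, compared with 54.8, 54.5 and 64.1 CPM in the CBP-ifKO libraries. All CBP-ifKO libraries were below all Control libraries, with a log2 fold change of -0.44 (edgeR adjusted p 0.00196, SE 0.076) that was called in each of the 16 alternatives. The 4 other Gi/o subunits did not pass, and Gnao1, the main one in brain, had a log2 fold change of -0.16 (edgeR adjusted p 0.221). Kcnj9, a GIRK channel subunit, fell from 68.9 ± 7.06 to 55.0 ± 3.73 CPM (log2 fold change -0.33, edgeR adjusted p 0.0232). Its value was -0.18 with trends on GC content and length removed (0.0991), and -0.23 to -0.35 when Control 2 or 3, or CBP-ifKO 2 or 3, was left out (0.0602 to 0.145), none of which called it.

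Rgs4, which shortens Gi/o signals, was at 137.6, 168.3 and 143.9 CPM in the Control libraries, compared with 119.2, 97.9 and 100.9 CPM in the CBP-ifKO libraries. The groups did not overlap, and the log2 fold change of -0.50 (edgeR adjusted p 0.00163, SE 0.084) was called in each of the 16 alternatives. Rgs9, a relative best known from striatal opioid and dopamine signaling, went the other way, from 13.1 ± 1.04 to 17.8 ± 0.0967 CPM (log2 fold change 0.44, edgeR adjusted p 0.0221). That call depended on Control 2 and 3 and on each CBP-ifKO library, and was lost whenever 1 of these was left out (adjusted p 0.0517 to 0.0778). None of the arrestins and receptor kinases passed the threshold in edgeR, DESeq2 or limma-voom, and 2 of them, Arrb1 and Grk2, had an unadjusted edgeR p under 0.05.

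Of the 7 factors known to bind regulatory sequence of Pdyn or Penk, 3 fell in edgeR and limma-voom and 2 in DESeq2, and none of these tools had a higher one, with 0 higher at an unadjusted edgeR p under 0.05. Kcnip3 encodes DREAM, a calcium-binding repressor known from the prodynorphin gene. It was at 58.5, 63.6 and 66.0 CPM in the Control libraries, compared with 42.7, 37.7 and 36.9 CPM in the CBP-ifKO libraries. The groups were far apart, and the log2 fold change was -0.68 (edgeR adjusted p 9.38e-05, SE 0.079). Jun, an AP-1 subunit, was at 40.6, 48.4 and 47.5 CPM in the Control libraries, compared with 27.4, 29.9 and 32.3 CPM in the CBP-ifKO libraries. It fell without overlap (log2 fold change -0.60, edgeR adjusted p 7.07e-04, SE 0.09), and like Kcnip3 it was called in each of the 16 alternatives. Of its exon bases, 7.28% are shared with Junos on the opposite strand.

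Fosb, another AP-1 subunit, was at 2.82, 3.44 and 3.67 CPM in the Control libraries, compared with 1.84, 0.986 and 2.14 CPM in the CBP-ifKO libraries. These low levels did not overlap, and the log2 fold change was -1.03 (edgeR adjusted p 0.0349, SE 0.28). DESeq2 did not call it (adjusted p 0.0959), nor did edgeR when Control 2 (0.0578) or 3 (0.14), or CBP-ifKO 1 (0.06) or 2 (0.187), was left out. Creb1, the factor that recruits CBP to the cAMP response element, had a Control mean of 112.6 ± 7.41 CPM and a CBP-ifKO mean of 117.2 ± 5.82 CPM (log2 fold change 0.06, SE 0.067) and did not pass. Crem, Fos and Jund did not pass either.

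Because Creb1, Crem and the AP-1 subunits read short DNA letters, RefSeq promoter windows of build GRCm38.p6 were searched on both strands. Each window held the 250 bases before the start. Letters read by Kcnip3 were not searched. The letters were the cAMP response element (CRE) TGACGTCA, its shorter form TGACG, which every CRE also holds, and the AP-1 site TGANTCA. Of 32851 windows, 1.55% held the CRE, 17.8% the shorter form and 6.75% the AP-1 letters. Of the 7 opioid genes, 4 had an entry (Pdyn, Oprm1, Oprd1 and Oprl1), and none of their 9 windows held any of these letters. Penk, Pnoc and Oprk1 had no entry and were not searched. Given the shares over all windows, 9 windows are too few for anything to be read from this absence. Of the 53 surrounding genes, 42 had an entry, and their 55 windows held the CRE in 3, the shorter form in 11 and the AP-1 letters in 3. The lines below show the 3 CRE matches, and the AP-1 match of Kcnip3 as the called gene among the 3 with that site. The match is in capitals within 15 bases on either side, 5′ to 3′ on the strand of the gene.
Pcsk1, chr13:75089764-75089801, plus strand: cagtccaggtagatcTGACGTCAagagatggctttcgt
Chgb, chr2:132781555-132781592, plus strand: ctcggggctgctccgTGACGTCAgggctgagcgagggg
Scg2, chr1:79440072-79440109, minus strand: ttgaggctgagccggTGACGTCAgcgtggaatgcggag
Kcnip3, chr2:127522195-127522231, minus strand: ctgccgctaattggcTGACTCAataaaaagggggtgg
The CRE began 78 bases before the RefSeq start of Pcsk1, 72 before that of Chgb and 68 before that of Scg2. GENCODE places these starts elsewhere, and by its gene bounds the match lies before Pcsk1 but inside Chgb and Scg2. Pcsk1 fell and Chgb rose, whereas Scg2, a secretogranin, had a log2 fold change of -0.16 (edgeR adjusted p 0.139) and was not called. A match is a description of the letters and not of binding.

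To see whether the difference at the opioid genes extended along the chromosome, the nearest protein-coding gene on either side of each was examined. Of these 14 genes 10 could be tested. In edgeR, DESeq2 and limma-voom alike, 2 fell and none rose. Over all genes tested, edgeR called 6.39% in either direction and 4.99% lower. With an unadjusted edgeR p under 0.05, 3 neighbours were lower and 0 higher. The median log2 fold change of the 10 was -0.10. Sirpa, 54.3 kb from Pdyn, fell from 290.1 ± 9.27 to 240.7 ± 19.5 CPM (log2 fold change -0.27, edgeR adjusted p 0.0169), much less than Pdyn itself. It lost its call when Control 1 (0.0528), or CBP-ifKO 2 (0.111) or 3 (0.109), was left out. Stk35, on the other side of Pdyn at 100.7 kb, had a log2 fold change of -0.12 and was not called (edgeR adjusted p 0.507). The tested neighbour of Penk, Impad1, lay 623.7 kb away and had a log2 fold change of 0.10 (edgeR adjusted p 0.395).

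Ipcef1 overlaps Oprm1 on the opposite strand, and 1.19% of the exon bases of Oprm1 are shared with it. It was at 48.0, 55.3 and 54.5 CPM in the Control libraries, compared with 40.2, 39.4 and 40.4 CPM in the CBP-ifKO libraries. It fell without overlap (log2 fold change -0.40, edgeR adjusted p 0.00478, SE 0.076) and was called in each of the 16 alternatives, whereas Oprm1 stood at -0.01. Next to Oprk1, Npbwr1, a neuropeptide receptor gene 307.6 kb away, had a log2 fold change of -0.80 (SE 0.31) but was not called (edgeR adjusted p 0.146).

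Likeness of pattern was measured over the 6 libraries as the root mean square difference of log2 CPM after each gene was set to its own mean, among 17432 genes with a mean of at least 1 CPM. The points share the genotype contrast, so the nearest genes are genes that were also lower, and no test was made. Nearest to Pdyn was Rgs14, a regulator of G protein signaling, with a difference of 0.104. It went from 74.3 ± 9.59 CPM in Control to 31.2 ± 1.39 CPM in CBP-ifKO. Fbln2 (0.147), Psrc1 (0.154) and Ier5l (0.162) were also near, and Penk ranked 17th (0.225). Nearest to Penk were Ier5l (0.156), the lincRNA Gm30371 (0.161), Rgs14 (0.175), Wnt2 (0.182) and Asic4 (0.199), and Pdyn ranked 12th. Ier5l and Rgs14 stood on both lists, at 1.32 ± 0.0602 CPM in CBP-ifKO against 2.99 ± 0.109 CPM in Control for Ier5l.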

How the data were processed

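Total RNA was sequenced as single-end reads of 50 bp. The authors aligned them with STAR (2.6.1) to GRCm38, kept confidently mapped reads and assigned them to Ensembl exons with Rsubread. The deposited values are raw counts by gene, not normalized, and use of the read strand was not stated. Of 55471 identifiers, 55230 (99.57%) matched GENCODE M21 of the same build, which supplied symbols, coordinates and transcripts.

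Counts were fitted with edgeR (4.0.16; R 4.3.3), with TMM scaling, filterByExpr (minimum count 10, minimum total 15), the quasi-likelihood F test and Benjamini-Hochberg adjustment over all 17981 genes tested. The threshold was an adjusted p of 0.05, and the fit was tested on simulated data. The study used DESeq2, run here (1.42.0) as an alternative. Total counts were 10199008 to 14950257 per library. P-values set the difference between genotypes against the spread between 3 pools per group, which edgeR moderates with that of all genes. The main fit did not treat same-numbered libraries as pairs.

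The members and all lists were chosen with earlier results of these data known. Named were the members, Crebbp, pathway and neighbour genes past the threshold and the 5 genes most like Pdyn and Penk, and other genes were named after their values were seen. 1 item is not reported here. Alternatives were DESeq2, limma-voom (3.58.1), RLE, upper-quartile and total scaling, other filters, each library left out, the replicate number as a block, and offsets for GC content and length.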

Additional observations from a re-analysis of the deposited data

How the results depend on the processing

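Across 16 alternatives, the log2 fold changes of the 7 opioid genes moved by less than the SD between libraries within groups. For the fits with 1 library left out this says little. Dropping 1 of 3 libraries can hardly shift a group mean by more than that SD. With each library left out in turn, Pdyn ran from -1.48 to -1.32, Penk from -1.45 to -1.15, Pnoc from -0.54 to -0.38, Oprd1 from -0.46 to -0.34, Oprk1 from -0.56 to -0.27, Oprl1 from -0.20 to -0.05 and Oprm1 from -0.06 to 0.05. The number of surrounding genes called ran from 6 to 11 in these fits, against 12 with all libraries (lower from 5 to 9, higher from 0 to 2), and that of neighbours from 1 to 2. Fewer samples enter these fits. The count was 10 with DESeq2, 11 to 13 in the other fits with all libraries and no block, and 17 when offsets for GC content and length were joined to the replicate block. Over all genes, the 1149 calls shrank to 546 when Control 3 was dropped, to 498 when CBP-ifKO 2 was dropped and to 526 when CBP-ifKO 3 was dropped, and grew to 1884 with block and offsets joined.

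With longest transcripts as the length, levels in Control were 3.52 CPM per kb for Pdyn, 9.90 for Penk, 2.22 for Oprm1, 0.465 for Oprk1 and 15 for Oprl1. Oprd1 and Pnoc kept their values because their longest transcript holds all exons.

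Replicate numbers were shared by the groups, and deviations of same-numbered libraries correlated at 0.077, 0.0373 and 0.00384. These low values show little pairing by number but cannot exclude a shared batch. Over all genes, the block raised the calls from 1149 to 1210, and from 1131 to 1884 with offsets for GC content and length. With the replicate block, Pdyn was at -1.42, Penk at -1.27, Pnoc at -0.47, Oprm1 at -0.01, Oprd1 at -0.39, Oprk1 at -0.47 and Oprl1 at -0.12, and 13 surrounding genes and 2 neighbours were called.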
